A study of Mus musculus with 2 samples.

Results

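Genes of cholesterol and fatty acid synthesis were read in E14 mouse embryonic stem cells, a blastocyst-derived line of the 129/Ola background whose label gives a double knockout of the Argonaute genes Ago1 and Ago2. The members were 32 genes chosen by name, and all 32 were found by symbol among the 47643 gene IDs of the count files. PolyA RNA of this 1 genotype was sequenced in 2 libraries, named replicate 1 and replicate 2 as in the labels. Argonaute proteins carry microRNAs to their target transcripts. Cultures held 15% serum, a source of cholesterol and fatty acids, and 100 U/mL LIF, on 0.2% gelatine. The labels name no clone and no separate cultures. Without unmodified cells, which were not analysed here, the knockout has no measured effect below, and every comparison is between genes or between the libraries.

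Cells build cholesterol from acetyl-CoA through mevalonate, farnesyl diphosphate, squalene and lanosterol, and part of the same acetyl-CoA goes into fatty acids. The transcription factors SREBP1 and SREBP2, encoded by Srebf1 and Srebf2, raise the genes of these pathways when membrane cholesterol is low. At high cholesterol the INSIG proteins hold SREBP and its escort SCAP in the endoplasmic reticulum. Not every enzyme of these pathways is among the members.

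Library totals were 34798975 counts in replicate 1 and 29789560 counts in replicate 2, so 3 counts, taken as the floor, equal 0.0862 and 0.101 CPM, a gene's counts put on a fixed scale per library. Reads of both labelled knockout genes were present: Ago1 had 2463 and 4205 counts in replicates 1 and 2 (log2 ratio -0.99), and Ago2 had 4304 and 3839 counts in replicates 1 and 2 (log2 ratio -0.06). Gene totals do not show whether these transcripts are intact, so they do not check the label. Ago1 differed between the libraries, with an adjusted p of 5.53e-166 by an exact binomial test and 1.37e-08 by edgeR's exact test, both described below, and its part in the results was not tested. All 5 stem cell markers were expressed, with Pou5f1, which encodes Oct4, at 1748 and 1627 TPM in replicates 1 and 2. The fibroblast markers Col3a1 and Lum and the endoderm and liver markers Alb, Afp and Ttr had no count, while Vim stood at 37.2 and 32.7 TPM and Gata4 at 4.09 and 3.05 TPM. TPM is a count per base of merged exon length, scaled to a common total, and was used wherever genes are set against each other. The libraries differed across all genes by a biological coefficient of variation of 9.99%. Levels are given for each replicate or as mean ± SD over both (n = 2), and an SD measures only the spread between these libraries, which may be technical. Every p-value here likewise compares only these libraries, and what separates them may be technical. In bulk RNA, fewer cells with a transcript and less of it per cell cannot be told apart.

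All 32 members reached 1 CPM in both libraries, against 58.0% of protein-coding genes and 29.6% of all genes. They spanned from 8.15 ± 0.907 TPM for Hsd17b7 to 472 ± 79.0 TPM for Acly, a range of 57.9-fold, and 27 of them lay above 17.4 TPM, the median of the expressed protein-coding genes. On this merged exon length the highest were Acly, Scd2, Hmgcs1, Fasn and Srebf2. The order depends on the length: on longest coding transcripts Fasn ranked 7, and on median transcript lengths the highest were Fasn (724 TPM as a mean of both libraries), Acly (512 TPM), Idi1 (242 TPM), Srebf2 (207 TPM) and Scd2 (156 TPM). The lowest on merged exon lengths and on longest coding transcripts were Hsd17b7, Tm7sf2, Insig2, Sc5d and Scap. On median transcript lengths they were Sc5d (11.2 TPM), Hsd17b7 (13.2 TPM), Tm7sf2 (16.5 TPM), Mvk (19.2 TPM) and Insig2 (24.3 TPM), while Scap stood at 90.3 TPM. Together the members took 0.540% of gene counts in replicate 1 and 0.501% in replicate 2, a mean of 0.520% ± 0.0275. The 95% intervals by the exact Clopper-Pearson method were 0.537 to 0.542% and 0.498 to 0.503%. Acly, Fasn and Scd2 alone made up 42.0 and 40.4% of these counts. Intervals cover counting error only.

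**Figure D1:**
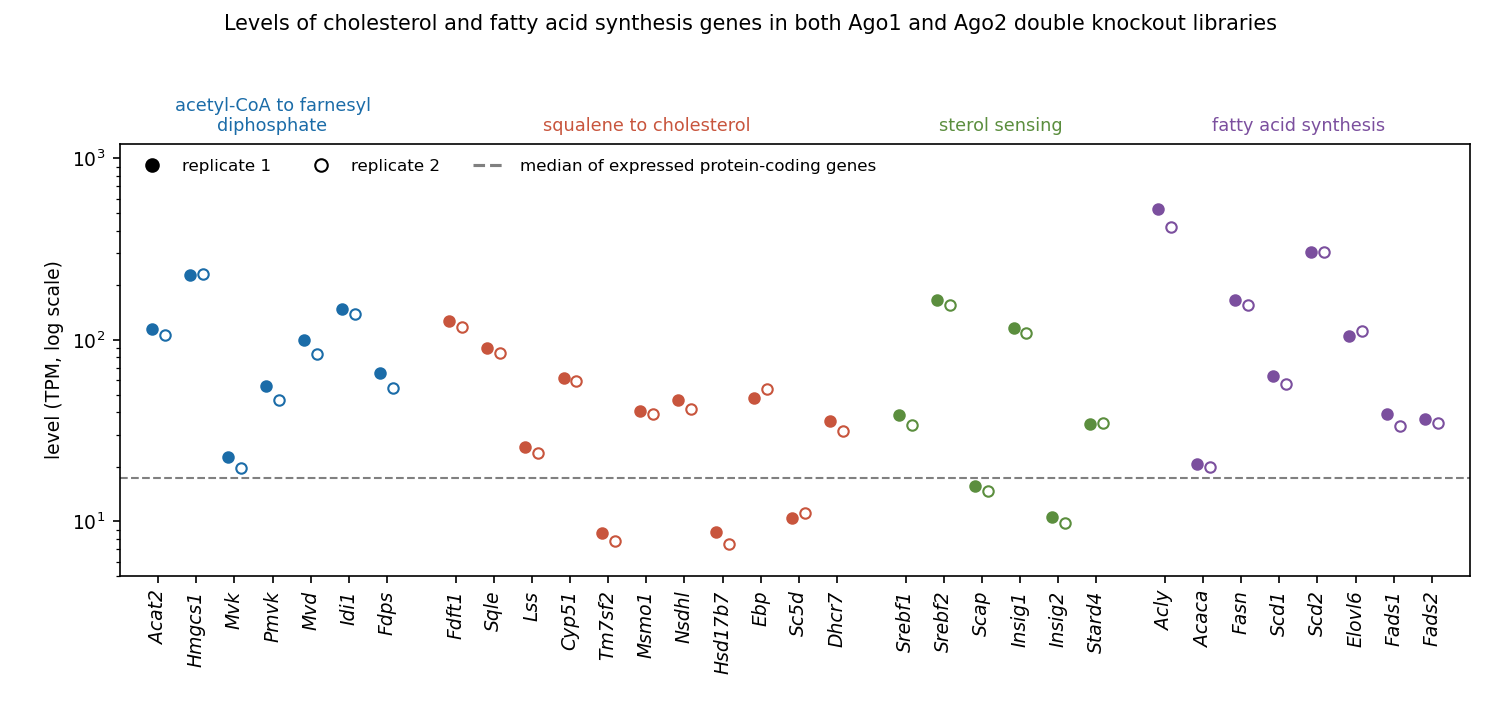
Level of each member in TPM on a log scale, in the order of the pathways, with filled points for replicate 1, open points for replicate 2 and a dashed line at the median of expressed protein-coding genes (17.4 TPM). Acly is the highest at 528 and 416 TPM, and Tm7sf2, Hsd17b7, Sc5d, Insig2 and Scap lie under the line in both libraries.

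Transcription of these genes is known to draw on SREBP, on NF-Y, which binds CCAAT boxes, and on Sp1, which binds GGGCGG boxes. Of the members, 25 had a start site in the RefSeq promoter table of GRCm38.p6, which gives 250 bases before to 50 bases after each start. The window of the most abundant such member of each step is shown, 5′ to 3′ on the gene's own strand, with CCAAT boxes and sterol elements in capitals on whichever strand they lie, so an antisense CCAAT box reads ATTGG.
Hmgcs1 promoter, chr13:119690101-119690400, plus strand: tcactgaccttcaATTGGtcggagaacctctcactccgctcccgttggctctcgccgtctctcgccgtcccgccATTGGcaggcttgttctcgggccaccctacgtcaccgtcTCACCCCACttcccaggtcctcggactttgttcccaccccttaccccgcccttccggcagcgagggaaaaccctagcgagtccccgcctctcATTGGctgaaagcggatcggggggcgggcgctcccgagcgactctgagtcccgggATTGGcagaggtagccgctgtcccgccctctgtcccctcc
Cyp51 promoter, chr5:4104648-4104947, minus strand: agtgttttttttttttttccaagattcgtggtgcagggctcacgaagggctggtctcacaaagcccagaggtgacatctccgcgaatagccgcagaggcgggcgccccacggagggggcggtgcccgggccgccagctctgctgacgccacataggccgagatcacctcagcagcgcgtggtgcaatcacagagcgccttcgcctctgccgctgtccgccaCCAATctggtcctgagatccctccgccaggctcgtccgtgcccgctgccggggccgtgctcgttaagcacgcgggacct
Srebf2 promoter, chr15:82147019-82147318, plus strand: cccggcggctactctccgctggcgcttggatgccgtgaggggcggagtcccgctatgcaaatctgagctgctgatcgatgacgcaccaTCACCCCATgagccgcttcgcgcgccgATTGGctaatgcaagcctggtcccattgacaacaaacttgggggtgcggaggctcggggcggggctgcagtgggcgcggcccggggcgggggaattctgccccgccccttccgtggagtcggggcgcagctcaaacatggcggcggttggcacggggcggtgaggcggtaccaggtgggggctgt
Acly promoter, chr11:100527951-100528250, minus strand: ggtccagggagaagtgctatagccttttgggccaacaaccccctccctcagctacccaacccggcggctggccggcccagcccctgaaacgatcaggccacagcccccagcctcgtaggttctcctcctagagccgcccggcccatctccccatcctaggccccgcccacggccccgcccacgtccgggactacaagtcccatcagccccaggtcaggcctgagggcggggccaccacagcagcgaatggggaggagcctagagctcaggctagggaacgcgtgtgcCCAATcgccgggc
The sterol element was searched as TCACNCCAC or TCACNCCAT on both strands, where N is any base, and CCAAT and GGGCGG were searched on both strands too. None of the sterol elements found overlapped a CCAAT box. The motifs were chosen after values, and for TCACNCCAT also promoter letters, had been seen. Hmgcs1 held TCACCCCAC at bases -137 to -129 from the start, Srebf2 held TCACCCCAT at -162 to -154, and Msmo1 held TCACTCCAT at -177 to -169. TCACNCCAC was found in 1 of 25 members, in 1.44% of 9782 expressed protein-coding genes with a window and in 1.44% of all 27025 genes of the table. TCACNCCAT was found in 2 of 25 members, 0.644% of the expressed genes and 0.858% of all genes. CCAAT was found in 20 of 25 members (80.0%), against 43.3% of the expressed and 41.1% of all genes. Over windows, of which some genes have several, CCAAT was in 63.6% of 33 member windows and in 37.8% of 12565 windows of expressed protein-coding genes. Hmgcs1 had 4 CCAAT boxes, all antisense, and Mvk had 5, the most in 1 window among the members. GGGCGG was found in 84.0% of members, 70.2% of the expressed genes and 38.2% of all genes. These matches describe letters and not bound sites. Other forms of the sterol element were not searched, so a window with none in capitals is not shown to lack one.

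On merged exon lengths the enzymes from acetyl-CoA to farnesyl diphosphate were the more abundant of the sterol enzymes. Their 7 genes had a median log2(TPM + 1) of 6.53 ± 0.17, against 5.35 ± 0.04 for the 11 genes from squalene to cholesterol and a median of 4.21 in replicate 1 and 4.18 in replicate 2 for expressed protein-coding genes. Hmgcs1 (ENSMUSG00000093930; GRCm38 chromosome 13, 119690379 to 119708260, plus strand), which makes HMG-CoA, stood at 227 and 229 TPM and led this step in both libraries. Idi1, the isomerase of isopentenyl diphosphate, had 149 and 140 TPM, and Acat2, the cytosolic thiolase that joins acetyl-CoA units, had 115 and 107 TPM. Mvd, which makes isopentenyl diphosphate, had 99.2 and 84.0 TPM, and Fdps, which makes farnesyl diphosphate, had 66.1 and 54.1 TPM. The kinases that act on mevalonate and on its phosphate were the lowest of the step. Pmvk stood at 55.8 and 46.9 TPM and Mvk at 22.6 and 19.7 TPM, so that Hmgcs1 exceeded Mvk 10.1-fold in replicate 1 and 11.6-fold in replicate 2. With the longest coding transcript as the length in place of all merged exons, Fdps stood at 133 TPM and ranked 5 among the members in place of 14, so its place in this order rests on the length used. On median transcript lengths the medians of log2(TPM + 1) were close, at 5.78 for this step and 5.65 for the genes from squalene to cholesterol, and Idi1 (242 TPM) exceeded Hmgcs1 (150.2 TPM).

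Along the path from squalene to cholesterol, levels on merged exon lengths were higher at the first steps than at several late ones. Fdft1, squalene synthase, had 128 and 118 TPM, and Sqle, the squalene epoxidase, had 89.7 and 85.0 TPM. Cyp51, which removes the first methyl group of lanosterol, had 61.5 and 59.0 TPM. Lss, which closes the sterol rings, read 25.8 and 24.0 TPM over a merged exon length of 10787 bases and 41.8 TPM as a mean over its longest coding transcript of 4667 bases. The complex that removes the remaining extra methyl groups of lanosterol was uneven. Its members Nsdhl (46.7 and 41.4 TPM) and Msmo1 (40.6 and 38.9 TPM) exceeded Hsd17b7, the ketoreductase, which had 8.79 and 7.51 TPM from 565 and 415 counts. Of the last enzymes, the isomerase gene Ebp had 47.6 and 53.5 TPM, the final reductase gene Dhcr7 35.5 and 31.3 TPM and the desaturase gene Sc5d 10.4 and 11.2 TPM. The values of the libraries did not cross between Fdft1, Sqle, Cyp51, Lss and Hsd17b7, whose order was the same in both. On longest coding transcripts Sqle (128 TPM) exceeded Fdft1 (102 TPM) and Msmo1 stood at 86.9 TPM, so these orders turn with the length. On median transcript lengths Cyp51 (129 TPM) exceeded both Fdft1 (101 TPM) and Sqle (64.2 TPM).

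The sterol reductase that acts after Cyp51 can be made from either of a pair of genes, and in these cells Lbr carried most of the transcripts. Tm7sf2 had 8.60 and 7.82 TPM, from 477 and 373 counts, while Lbr, which also encodes a receptor of the nuclear lamina, had 104 and 97.3 TPM. The share of Lbr in the pair was 92.4% in replicate 1 and 92.6% in replicate 2 in TPM, or 85.0% as a mean on longest coding transcripts. Exons of Tm7sf2 overlap those of Vps51 on the same strand, so part of its few counts may belong there. Acat2 held 98.8 and 99.0% of the TPM it shares with Acat3, a near copy with 43 and 27 counts, but 39.1% of the 50-base stretches of Acat2 recur in Acat3, and the split is uncertain.

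Sterol sensing genes were uneven in the same way, with 1 highly expressed form in each pair. Srebf2 (ENSMUSG00000022463; GRCm38 chromosome 15, 82147181 to 82205379, plus strand), whose product acts mainly on sterol genes, had 165 and 155 TPM. Srebf1, whose product acts mainly on fatty acid genes, had 38.6 and 34.1 TPM. Srebf2 thus made up 81.1% of the pair in replicate 1 and 81.9% in replicate 2, and exceeded Srebf1 4.29-fold and 4.54-fold. Insig1, itself a known SREBP target, had 116 and 109 TPM, and Insig2 had 10.5 and 9.76 TPM. Insig1 made up 91.7 and 91.8% of this pair. On median transcript lengths Srebf2 exceeded Srebf1 only 2.08-fold and 2.20-fold, and Insig1 exceeded Insig2 2.94-fold and 2.99-fold, in replicates 1 and 2. The escort gene Scap stood at 15.6 and 14.7 TPM, below Srebf2 and Insig1 in both libraries. On median transcript lengths Scap had a mean of 90.3 TPM, above Insig1 at 72.2 TPM and below Srebf2 at 207 TPM. Stard4, which encodes a carrier of cholesterol between membranes, stood at 34.3 and 34.9 TPM. The median log2(TPM + 1) of these 6 regulators was 5.19 ± 0.05, or 6.37 on median transcript lengths.

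**Figure D2:**
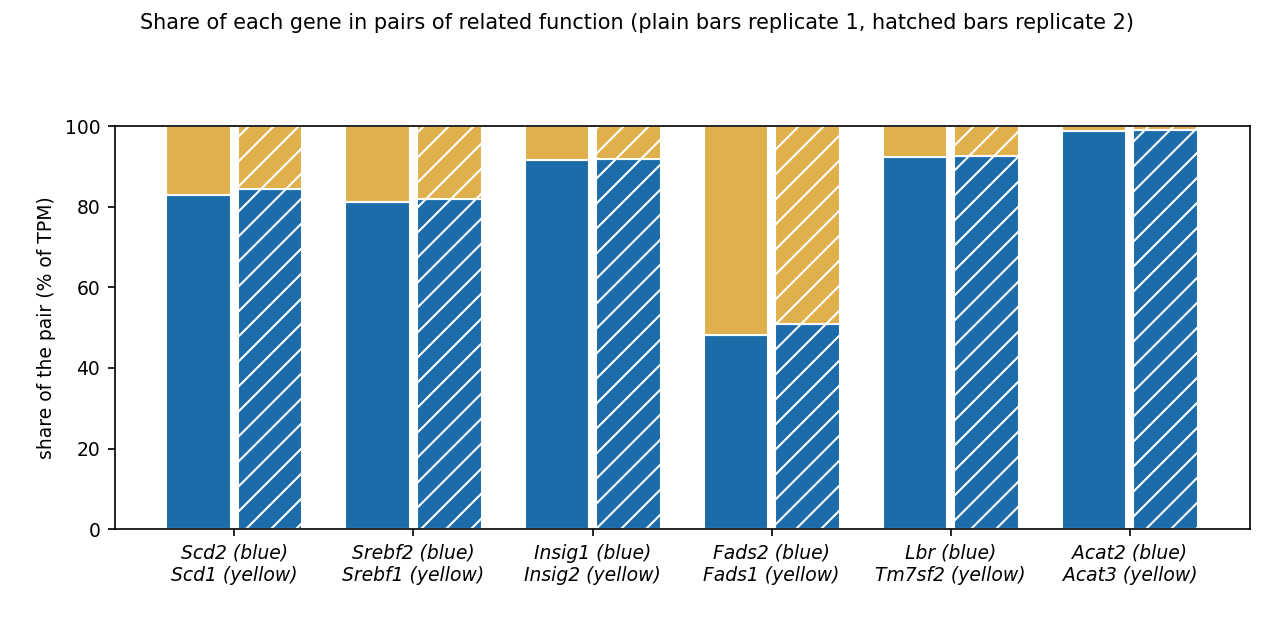
Share of each gene in the summed TPM of its pair, in percent, with plain bars for replicate 1, hatched bars for replicate 2, the first-named gene in blue and its partner in yellow. Scd2, Srebf2, Insig1, Lbr and Acat2 hold 81.1 to 99.0% of their pairs in both libraries, and Fads2 and Fads1 are near equal at 48.3 and 50.8% for Fads2.

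Among the fatty acid genes, levels on merged exon lengths were far apart between neighbouring steps. Acly (ENSMUSG00000020917; GRCm38 chromosome 11, 100476353 to 100528000, minus strand), which splits citrate into the acetyl-CoA that feeds both pathways, had 528 TPM in replicate 1 and 416 TPM in replicate 2. Acaca, which makes malonyl-CoA, stood at 20.6 and 20.0 TPM, and Fasn, the synthase that builds palmitate, at 166 and 156 TPM. Fasn exceeded Acaca 8.06-fold and 7.77-fold, and Acly exceeded it 25.7-fold and 20.8-fold. These gaps rest on the merged exon length of Acaca, 17074 bases. Mean levels of Acly, Acaca and Fasn were 409 TPM, 26.5 TPM and 127 TPM on longest coding transcripts, and 512 TPM, 117 TPM and 724 TPM on median transcript lengths. For Acaca, 30.4% of 50-base stretches recur in other genes, chiefly Gm5182 (29.2%), and how the deposited counts treat such reads is not given in the sources used here. The median log2(TPM + 1) of the 8 fatty acid genes was 6.35 ± 0.02, or 7.01 on median transcript lengths.

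The desaturases and the elongase among the members all lay above the median expressed gene. Scd2 and Scd1 encode stearoyl-CoA desaturases, which make monounsaturated fatty acids, and in the adult mouse Scd1 is known as the main form of liver and Scd2 as that of brain. Scd2 (ENSMUSG00000025203; chromosome 19, 44293674 to 44306864, plus strand) had 304 and 305 TPM and Scd1 (ENSMUSG00000037071; chromosome 19, 44394455 to 44407879, minus strand) 63.2 and 56.9 TPM. Scd2 made up 82.8 and 84.3% of the pair, and 83.4% as a mean on longest coding transcripts. On median transcript lengths, 750 bases for Scd1 against 4832 for its longest coding transcript, the mean share of Scd2 was 52.7%. The other genes of the family, Scd3 and Scd4, had 1.25 and 1.22 TPM and 2 counts in each library. Elovl6, which lengthens palmitate, had 105 and 112 TPM. Fads1 (39.0 and 33.7 TPM) and Fads2 (36.4 and 34.8 TPM), the desaturases of polyunsaturated fatty acids, kept no order on merged exon lengths. There Fads1 was higher in replicate 1 and Fads2 in replicate 2. On longest coding transcripts Fads1 was higher in both (39.3 and 34.1 TPM against 27.6 and 26.5 TPM), and the mean share of Fads2 was 42.5%. Fads2 also held the smaller share in both libraries on median transcript lengths (39.2 and 41.6%) and in counts (39.0 and 41.4%).

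The libraries were then set against each other, with log2 ratios of replicate 1 over replicate 2. The largest ratio among the members was 1.26-fold for Acly and the lowest 0.887-fold for Ebp, and 2 of 32 members, Acly and Fdps, differed more than 1.2-fold in either direction, against 8.67% of genes with at least 1000 counts. The median member ratio was 0.10 on the log2 scale, against 0.01 for the 19078 genes tested and -0.01 for the 8358 genes with at least 1000 counts. Of the 32 members 26 had a ratio above 0 (81.3%), against 51.9% of all genes tested and 48.2% of those with at least 1000 counts. The direction was that of 15 of 18 sterol enzymes, 5 of 6 regulators and 6 of 8 fatty acid genes. With a trend on GC content and length removed, the counts were 16 of 18, 4 of 6 and 5 of 8. These counts describe 2 libraries. Among markers, Vim (0.18) and Gata4 (0.42) were also higher in replicate 1, as were Pou5f1 (0.10) and Dppa5a (0.17). Zfp42, Esrrb and Tfcp2l1 were lower (-0.05 to -0.09), and the median ratio of the 5 stem cell markers was -0.05. Their summed level was 16677 and 15016 TPM in replicates 1 and 2, of which Dppa5a alone gave 13780 and 12192 TPM. For Dppa5a, 38.6% of 50-base stretches recur in other genes. Across the 32 members the ratio and the GC content had a Spearman rho of 0.54, and across all genes tested 0.20. The part of these differences in the members' ratios was not tested.

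By a two-sided exact binomial test on counts with Benjamini-Hochberg adjustment over all 19078 genes, 16 members were higher in replicate 1, 2 were lower and 14 were not called. The test called 24.2% of all genes, 13.1% higher and 11.2% lower in replicate 1, and it weighs a difference against counting error only, comparing these libraries and not conditions. It calls more genes at high counts: among genes with at least 1000 counts it called 39.5%, 19.0% higher and 20.5% lower, and of the 29 members at that depth 16 and 2. With the GC and length trend removed, 15 members were called higher and 2 lower, while the test called 20.9% of all genes, 10.4% higher and 10.5% lower. In edgeR's exact test, whose dispersion is estimated from the spread of these same libraries, no member passed, against 0.456% of all genes, and 1 member, Acly, had an unadjusted p under 0.05. Acly's adjusted p in that test was 0.544.

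**Figure D3:**
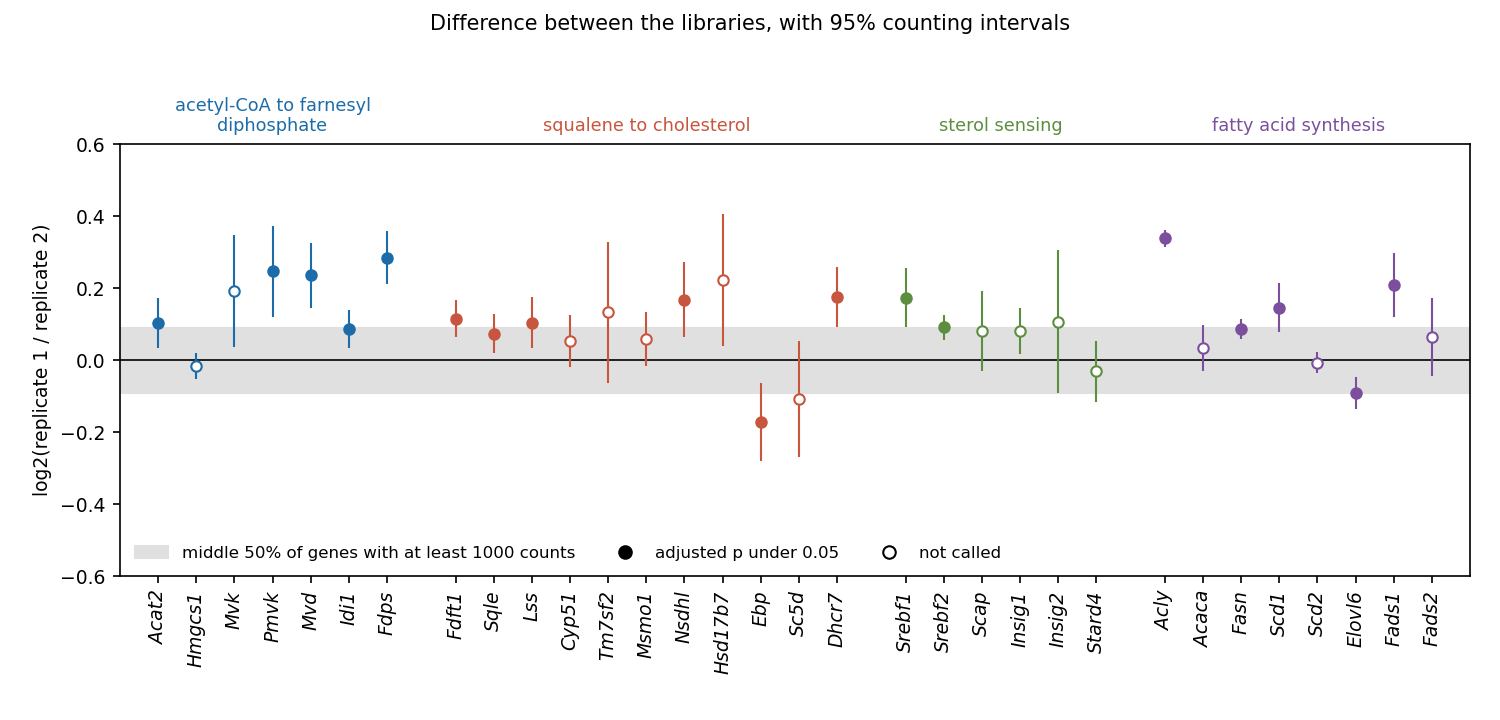
Log2 ratio of replicate 1 over replicate 2 for each member with 95% counting intervals, filled where the exact binomial test gave an adjusted p under 0.05, over a grey band that holds the middle 50% of genes with at least 1000 counts (-0.09 to 0.09). Of the members 17 lie above the band, 13 inside it and 2 below.

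Acly differed most, with 35100 and 23804 counts, or 1009 and 799 CPM, a ratio of 0.34 ± 0.01 on the log2 scale with its counting SE (binomial adjusted p = 1.41e-170). Fdps followed with 3502 and 2465 counts and a ratio of 0.28 ± 0.04 (adjusted p = 2.18e-12, same test), although 26.7% of its exon length overlaps Gm43738 on the same strand. Pmvk (0.25), Mvd (0.24), Fads1 (0.21), Dhcr7 (0.18), Srebf1 (0.17) and Nsdhl (0.17) were called higher too. The other 8 called higher, Scd1, Fdft1, Acat2, Lss, Srebf2, Fasn, Idi1 and Sqle, had ratios from 0.07 to 0.15. Ebp (-0.17 ± 0.06, adjusted p = 0.0105) and Elovl6 (-0.09 ± 0.02, adjusted p = 0.000569) were the 2 members called lower by the exact binomial test.

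Several genes at the centre of the pathways held nearly the same level in both libraries. Hmgcs1 stood at 378 CPM (95% Poisson interval 371 to 384) and 383 CPM (376 to 389.8), a ratio of -0.02 ± 0.02. Scd2 stood at 601 CPM (593 to 609) and 605 CPM (596 to 614), a ratio of -0.01 ± 0.01. For both genes the intervals of the libraries overlap. Srebf2 (0.09) and Fasn (0.09) were called, but their ratios turned to -0.01 and -0.02 and lost the call once the GC and length trend was removed. Srebf1 (ratio 0.07, binomial adjusted p = 0.254) and Lss (ratio 0.09, adjusted p = 0.0606) also lost their calls then. Msmo1 (0.10), Hsd17b7 (0.25) and Insig1 (0.11) were called higher only with the trend removed, with binomial adjusted p of 0.0361, 0.0368 and 0.00312. Under DESeq2 size factors Lss and Sqle were not called.

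**Figure D4:**
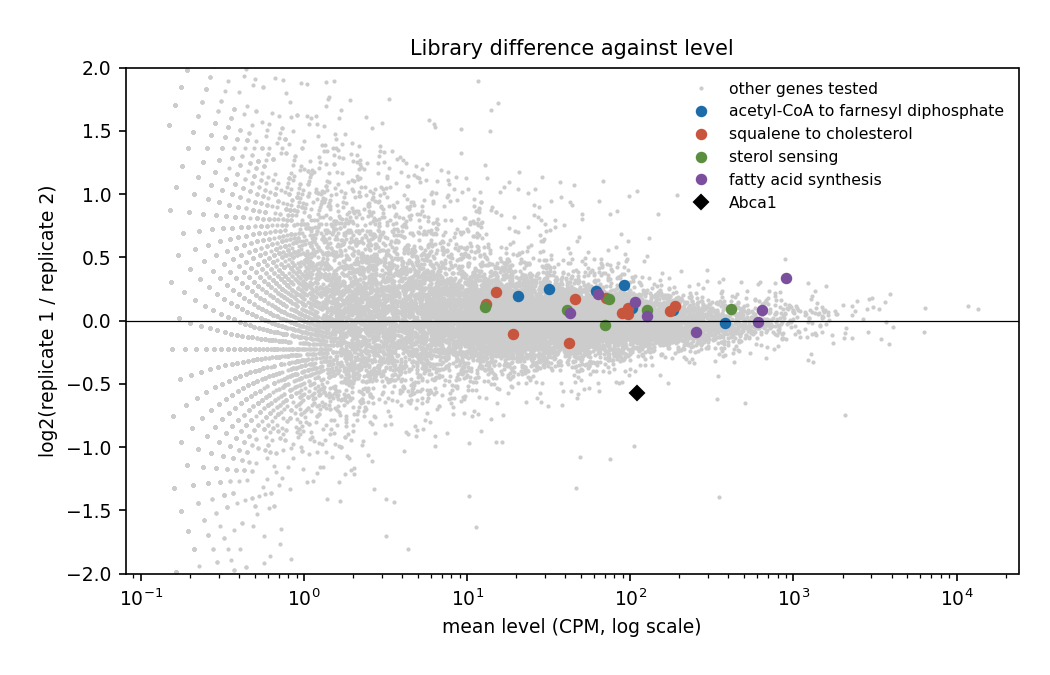
Log2 ratio of replicate 1 over replicate 2 against mean level in CPM on a log scale, with all genes tested in grey (ratios beyond 2 are not drawn), the members in colour by step and Abca1 as a black diamond. The members lie between ratios of -0.17 and 0.34, and Abca1 lies at -0.57.

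Related genes outside the members were read from 8 lists with 60 genes, of which 53 reached 1 CPM in both libraries. The exact binomial test called 12 of their 57 tested genes higher and 11 lower in replicate 1 (40.4%), and their median ratio was 0.00. It called 24.2% of all genes tested. Among genes with at least 1000 counts it called 39.5%, 19.0% higher and 20.5% lower. The calls in each list below stand beside these shares. The SREBP processing genes, which cut SREBP free or govern its turnover, had 7 of 7 expressed at a median of 21.4 and 23.7 TPM. Mbtps1, the site-1 protease gene, led with 45.3 and 47.4 TPM, before Erlin2 with 29.4 and 32.6 TPM. None of the 7 was called higher in replicate 1 and 4 were called lower (Mbtps1, Mbtps2, Erlin1 and Erlin2). Of these, Erlin1 lost its call with the GC and length trend removed (binomial adjusted p = 0.107). For Mbtps2, 28.4% of the exon length overlaps Yy2 on the same strand. The median ratio of the 7 was -0.14, against 0.11 for the 18 sterol enzymes, a difference that was not tested. Of the genes for factors that act with SREBP, Sp1 (125 and 120 TPM) and Nfyc (53.6 and 55.8 TPM) were highest and Nfya lowest (27.4 and 30.0 TPM), and Sp1 was called higher and Nfya lower, though Sp1 was not called under DESeq2 size factors. The non-sterol branches from farnesyl diphosphate, to dolichol, ubiquinone and prenylated proteins, had 7 of 7 expressed, 2 called lower (Nus1 and Fnta) and none higher. Both calls were lost with the GC and length trend removed (adjusted p = 0.141 and 0.260). There Fntb (75.6 and 71.6 TPM) and Fnta (67.8 and 72.8 TPM), the subunits of farnesyltransferase, were highest and Pdss2 lowest (7.90 and 7.62 TPM). The list of other sterol enzymes also held related genes that are not sterol enzymes, such as Acat1. It had 4 of 6 genes expressed, with 2 called higher (Lbr and Acat1) and none lower. This list was led by Lbr and by Por (56.0 and 53.0 TPM), which passes electrons to Cyp51 and Sqle, and Idi2 had no count.

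Abca1, which exports cholesterol from the cell, differed more than any member. It had 3085 and 3930 counts, or 23.6 and 35.0 TPM, in replicates 1 and 2. The ratio came to -0.57 ± 0.03 on the log2 scale, or 0.673-fold. The adjusted p was 6.61e-59 by the binomial test and 0.0179 by edgeR's exact test. The ratio stayed at -0.55 with the GC and length trend removed. Among the 9 genes of sterol sensing by LXR, export and storage, 8 were expressed, 4 were called higher in replicate 1 (Nr1h2, Mylip, Soat2 and Npc2) and 1, Abca1, lower. With the trend removed Nr1h2 lost its call (ratio 0.08, adjusted p = 0.151). The receptor gene Nr1h2 (78.4 and 70.2 TPM) led the list, before Npc2 (54.5 and 46.0 TPM), which moves cholesterol out of lysosomes. The second receptor gene, Nr1h3, had 8 and 6 counts and was the lowest.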

How the data were processed

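PolyA RNA of 2 libraries of 1 genotype was used. The authors deposited raw counts, read from the file contents as whole numbers of reads for each Ensembl gene ID. The library protocol was reverse-stranded and began with 1 ug of RNA, per the labels' protocols. The submitters' processing notes name STAR 2.4.2a and mm10 (GRCm38). How reads were counted, with which strand setting and annotation, is not given in the sources used here, so genes that overlap others or have copies are uncertain; 8 members had over 10% of 50-base stretches in other genes or over 5% of exon length overlapping another gene.

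GENCODE M21 named 47224 of 47643 IDs and gave positions and lengths. The other 419 stayed in the totals and took 0.116 and 0.124% of counts. TPM left them out. Ratios used a pseudocount of 0.5 counts, edgeR 4.0.16 TMM factors (0.999 and 1.00) and genes with at least 10 counts. The exact binomial test and edgeR's exact test (trended dispersion, both libraries as 1 group) were adjusted by Benjamini-Hochberg over all genes at 0.05. The trend on GC content and length was a lowess of fraction 0.3. The tests were also run on simulated counts, whose outcomes are not reported here and on which no call rests. The lists, besides the members, hold SREBP processing, SREBP cofactors, non-sterol isoprenoid, LXR, export and storage, other sterol enzymes, acetyl-CoA supply, elongation and desaturation, and fatty acid oxidation genes. By rule the text names all members, of each list the 2 highest and the lowest in mean TPM, any gene called by edgeR's test and partners of a pair; an item that this rule names is not reported here. Scd3, Scd4, Acacb, the markers and other genes named for their calls were added after their values were seen. The members and lists were chosen with earlier results of these data known.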

Additional observations from a re-analysis of the deposited data

How the results depend on the processing

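Under DESeq2 size factors, gene totals, other count filters or GC and length removal, 16 to 20 of 32 members were called against 18. Without the 8 members with shared or overlapping sequence, 14 of the remaining 24 were called. The exact binomial test called 24.2% of all genes in the main setting and 20.9% with the trend removed. The share of all genes in the other settings is not given here. In all of these settings, also with pseudocount 2 or a mean, the median ratio stayed between 0.08 and 0.10. In edgeR's exact test the calls were 0, with 0 higher and 0 lower in replicate 1; its dispersion came from these same differences. Expressed members were 32 at 0.5 CPM, 5 CPM and 1 TPM and in each library alone. Median log2(TPM + 1) of the mevalonate, squalene to cholesterol, regulator and fatty acid genes became 5.78, 5.65, 6.37 and 7.01 on median transcript lengths and 6.35, 5.06, 5.34 and 6.50 as means; on longest coding transcripts, chosen after seeing the data, the last 3 became 5.57, 4.99 and 5.96. The shares of Scd2, Srebf2, Insig1, Fads2 and Lbr in their pairs became 85.0, 84.9, 90.8, 40.2 and 93.0% in counts without length and 52.7, 68.1, 74.8, 40.4 and 94.3% on median lengths; on longest coding transcripts the last 4 became 82.6, 90.8, 42.5 and 85.0%. Median lengths count short non-coding transcripts. The members' share was 0.554% of nuclear protein-coding counts. With the GC and length trend removed, ratios changed sign to 0.036 for Hmgcs1, -0.011 for Srebf2, -0.0061 for Scap, 0.0029 for Stard4, -0.016 for Fasn, 0.017 for Ggps1, -0.0091 for Dhdds, -0.0013 for Fntb, -0.023 for Por, -0.038 for Fads3, -0.0091 for Cpt2 and 0.020 for Acadl. Elovl4 turned to -0.0083 under DESeq2 factors and -0.0064 with pseudocount 2, and Hadha to -0.011 under DESeq2 factors and -0.00082 under totals. The cause was not tested. No paired analysis was possible because the series has 1 group, so no groups share replicate numbers.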

Other observations

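Fatty acid oxidation genes, which work against synthesis, were all expressed (9 of 9), at a median of 39.4 and 43.8 TPM in replicates 1 and 2. Acadm, a dehydrogenase of medium-chain fatty acids, had 142 and 137 TPM, Hadhb, a subunit of the trifunctional protein, 50.7 and 52.5 TPM, and Cpt1a, which admits fatty acids to mitochondria, 54.5 and 47.8 TPM. Acadl was the lowest at 24.6 and 25.1 TPM. The exact binomial test called 2 higher (Cpt1a and Acadvl) and 1 lower (Slc25a20) in replicate 1, with a median log2 ratio of 0.00.

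Genes of acetyl-CoA supply were led by Slc25a1, the mitochondrial citrate carrier, at 156 and 159 TPM, followed by Me1, the cytosolic malic enzyme (56.6 and 59.4 TPM). Acss2, which makes acetyl-CoA from acetate, was lowest at 7.21 and 6.36 TPM. Acacb, the mitochondrial form of acetyl-CoA carboxylase, had 16.1 and 13.0 TPM beside 20.6 and 20.0 TPM for Acaca. In this list of 4, 1 gene was called higher in replicate 1, Acacb (0.30, adjusted p = 5.09e-08 in the exact binomial test). As a carboxylase it uses acetyl-CoA and does not supply it. Slc25a1 was called lower only with the GC and length trend removed (-0.11, binomial adjusted p = 0.00606). Of 14 elongation and desaturation genes 10 were expressed, led by Tecr (121 and 101 TPM), which completes each elongation cycle, and Hsd17b12 (64.5 and 67.4 TPM), its ketoreductase. Elovl3 had 1 count in each library, which is under the floor, and 2 genes were called higher (Tecr and Hacd3) and 2 lower (Elovl5 and Hacd1), with Hacd3 not called under DESeq2 size factors.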
